A study of Homo sapiens with 4 samples.

Results

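ARSI, an arylsulfatase gene, and 8 related sulfatase genes (ARSJ, ARSA, ARSB, ARSG, ARSK, GALNS, SULF1 and SULF2) were followed in RNA sequencing of HT-29 cells, a human colorectal adenocarcinoma line. All 9 genes were found by symbol among 20322 gene targets. ARSI was chosen by its measured share of the counts in these same 4 libraries, so its values are a description and carry no test. The other 8 were chosen by family, and the question asked of them is whether related sulfatases match ARSI. The comparison was between 2 IMP1-OE libraries and 2 null libraries. IMP1-OE cells had their IMP1 gene (symbol IGF2BP1) targeted with CRISPR/Cas9 and then carried the PiggyBac vector PB*-FLAG-IMP1-short UTR, which supplies FLAG-tagged IMP1, an RNA-binding protein. Null cells had the same targeting and carried PB*-empty. Both groups were of lines labelled as derived from a liver metastasis in a mouse, and both were kept in puromycin. The labels do not say whether a line is a single clone or whether replicates are separate cultures. The p-values therefore reflect the spread among the 4 libraries alone, and that spread may be technical.

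Sulfatases remove sulfate groups from sugars, lipids and steroids. They work only after a cysteine in the active site has been turned into formylglycine in the endoplasmic reticulum, a step carried out by the enzyme encoded by SUMF1. Most act in lysosomes, where they take part in the breakdown of glycosaminoglycans and sulfated lipids, while SULF1 and SULF2 trim heparan sulfate outside the cell and so alter its binding of growth factors. ARSI and ARSJ are close relatives of ARSB, and their natural substrates are not established.

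Library totals ran from 9343429 to 10594813 estimated counts. IGF2BP1, the gene of IMP1, had 71 and 112 counts in the IMP1-OE libraries, against 37 and 16 in the null libraries. It was higher in both IMP1-OE libraries (log2 fold change 1.69, SE 0.56, edgeR adjusted p = 0.453). Its level was low in both groups, at 1.44 and 2.23 TPM in IMP1-OE, against 0.735 and 0.371 TPM in null. Whether these counts came from the vector or from the cells' own gene was not tested. Of 10 colorectal epithelial markers, 8 passed the low-count filter, and the list summed to 26552 and 27313 CPM in IMP1-OE, against 28739 and 21036 CPM in null. The exceptions were the intestinal factors CDX1 and CDX2, with 0 to 9 and 0 to 47 counts per library. Fibroblast markers summed to 2.47 to 6.28 CPM in IMP1-OE and 2.52 to 13.1 CPM in null, and PDGFRA was at 0 in every library. Hepatocyte markers summed to 3.81 to 7.13 CPM in IMP1-OE and 3.39 to 4.50 CPM in null, with ALB, APOA1 and HP at 0. Blood and endothelial markers summed to 18.4 and 11.7 CPM in IMP1-OE, against 21.7 and 55.8 CPM in null, mostly from CD14. The part of these marker levels in the values below was not tested. CPM here is the count relative to the TMM-scaled library total, and it is used below to compare a gene between libraries. TPM, which also divides by the effective transcript length, is used to compare genes with each other.

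ARSI (ENSG00000183876, a protein-coding target of 3113 nt) took more of every library than any other target. It received 802649 and 1298660 counts in the IMP1-OE libraries, against 1882220 and 1613360 in the null libraries. As a share of the library this was 8.01% (95% Wilson interval 7.998 to 8.031%) and 12.4% (12.38 to 12.42%) in IMP1-OE, against 17.8% (17.74 to 17.79%) and 17.3% (17.24 to 17.29%) in null. The intervals cover counting error only. The linkers carried molecular identifiers, and whether these were used to collapse PCR copies is not stated. In bulk RNA, fewer cells with a transcript and less of it per cell cannot be told apart. The ARSI counts are of short fragments assigned to this target, and which RNA gave rise to these fragments was not tested. The shares may therefore differ from the level of the ARSI transcript itself. Both IMP1-OE libraries lay below both null libraries, and IMP1-OE replicate 1 was the lowest of the 4.

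The share of ARSI averaged 10.2% ± 3.10 in IMP1-OE and 17.5% ± 0.352 in null (SD, n = 2 each), a ratio of 0.583. After TMM scaling ARSI averaged 99916 CPM (SD 33278) in IMP1-OE, against 180327 CPM (SD 5334) in null, a fitted log2 fold change of -0.85. The 2 IMP1-OE libraries differed from each other by 1.62-fold, and of 6379 genes with a mean of at least 20 CPM only 2.54% differed more between these 2 libraries. The null libraries differed by 1.04-fold, and 88.6% of the same genes differed more. ARSI was thus variable within IMP1-OE and even within null. Without IMP1-OE replicate 1 the ratio of shares was 0.708 and without IMP1-OE replicate 2 it was 0.458.

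The next target in every library was KRT8, the gene of a simple epithelial keratin, at 127429 and 128140 counts in IMP1-OE, against 131134 and 86663 in null. ARSI exceeded it 6.30-fold and 10.1-fold in IMP1-OE, against 14.4-fold and 18.6-fold in null. KRT8 itself exceeded the target after it, its partner keratin KRT18, by only 1.15-fold to 1.38-fold. The RefSeq table lists KRT8 and KRT18 as overlapping genes, and whether this affects the split of counts between them was not tested. After KRT8 and KRT18, the largest mean shares belonged to the actin gene ACTB (0.794%), the translation elongation factor gene EEF1A1 (0.606%) and S100A6, the gene of a small calcium-binding protein (0.592%). Per length the gap was narrower. ARSI stood at 46156 and 73346 TPM in IMP1-OE, against 106128 and 106205 TPM in null, and the next target, S100A6, at 23136 and 19668 TPM in IMP1-OE, against 33373 and 30054 TPM in null.

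**Figure D1:**
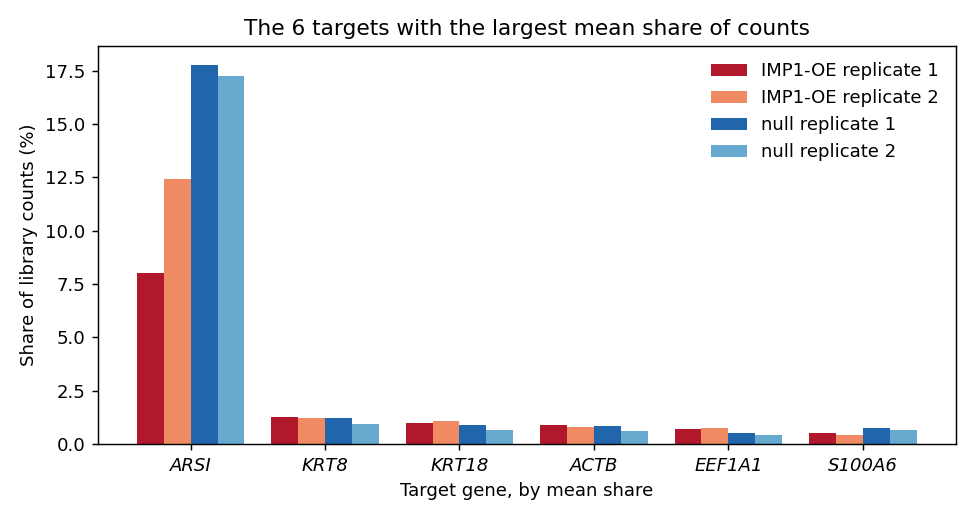
Share of library counts in percent for the 6 targets with the largest mean share, with 1 bar for each of the 4 libraries. ARSI lies between 8.01% and 17.8%, lower in both IMP1-OE libraries than in both null libraries, while the other 5 targets lie at or below 1.27%.

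No related sulfatase came near this level. The 8 other genes together had 3134 and 3247 counts in IMP1-OE, against 2677 and 2313 in null. This was 0.0313% (95% Wilson interval 0.0302 to 0.0324%) and 0.0310% (0.0300 to 0.0321%) of the IMP1-OE libraries, against 0.0253% (0.0243 to 0.0262%) and 0.0248% (0.0238 to 0.0258%) of the null libraries. The summed share was higher in both IMP1-OE libraries, and this rested on SULF2. The 7 genes other than ARSI and SULF2 had 753 and 673 counts in IMP1-OE, against 832 and 655 in null, or 0.00752% and 0.00643% of the library against 0.00785% and 0.00701%, with overlapping groups. Shares of other genes also depend on how much ARSI takes. With ARSI left out of the totals, the 8 genes took 0.0340% and 0.0354% in IMP1-OE, against 0.0307% and 0.0299% in null. The 7 genes then took 0.00817% and 0.00734% in IMP1-OE, against 0.00955% and 0.00847% in null. These groups of the 7 genes did not overlap, and both IMP1-OE libraries were lower. Per length, ARSI exceeded the sum of the 8 genes 333-fold and 532-fold in IMP1-OE, against 870-fold and 844-fold in null. The remaining 8 human sulfatase genes were then added. The 16 genes other than ARSI summed to 221 and 213 TPM in IMP1-OE, against 241 and 213 TPM in null. These groups overlapped only with ARSI in the TPM total. Leaving ARSI out raises the sums 1.05-fold and 1.08-fold in IMP1-OE, against 1.12-fold in both null libraries. Both IMP1-OE sums then lie below both null sums.

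The order of the 9 genes by mean TPM in IMP1-OE was ARSI, SULF2, GALNS, ARSA, ARSJ, ARSK, ARSG, ARSB and SULF1, and in null only ARSG and ARSB changed places. In IMP1-OE the ranges of ARSI, SULF2, GALNS, ARSA and ARSJ did not touch those of their neighbours in this order, while those of ARSK, ARSG and ARSB overlapped. ARSI ranked 1st of all targets by TPM in every library. SULF2 ranked between 1494 and 1953, GALNS between 3739 and 4101 and ARSA between 4282 and 6172. ARSJ ranked between 7508 and 9919, ARSK between 9727 and 11163, ARSB between 10566 and 11497 and ARSG between 9917 and 12082 of the 20322 targets.

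**Figure D2:**
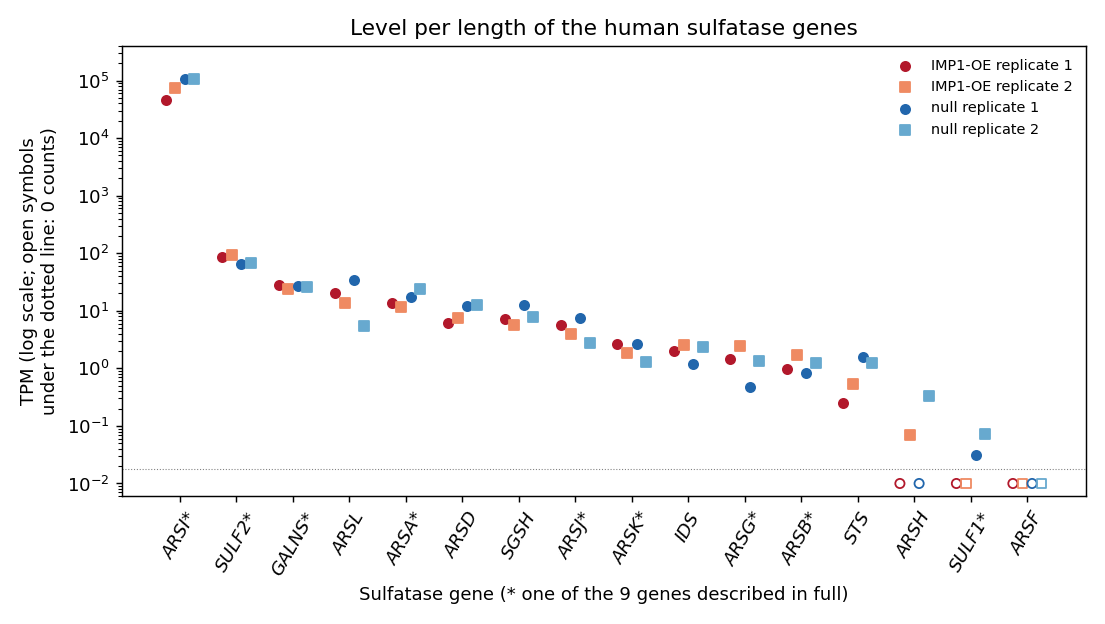
TPM on a log axis for 16 human sulfatase genes, ordered by mean, with 1 symbol for each library and open symbols for 0 counts. ARSI lies between 46156 and 106205 TPM, and the next gene, SULF2, between 65.7 and 91.8 TPM.

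The 8 other genes gave no call in the fit across all genes. The edgeR quasi-likelihood test was run on 12113 genes, of which 7 of the 8 passed the low-count filter, and at an adjusted p under 0.05 it called 0 genes (0%). Without adjustment, p was under 0.05 for 526 genes on the higher side (4.34%) and for 707 on the lower side (5.84%). By the same adjusted threshold limma-voom called 1 gene, and DESeq2 called 164 of 12836 genes (1.28%). Of the 7 tested sulfatases, 4 were on the higher side and 3 on the lower side, with a median log2 fold change of 0.18, where the median over all genes tested was -0.02. Both IMP1-OE libraries lay above both null libraries for 2 of the 7 (21.3% of all genes tested did so) and below them for 1 (21.9% of all genes tested).

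SULF2, the extracellular heparan sulfate endosulfatase, was the most abundant member after ARSI. It had 2381 and 2574 counts in IMP1-OE, against 1845 and 1658 in null, or 227 and 245 CPM against 180.5 and 181 CPM. Both IMP1-OE libraries were higher and the null libraries were nearly equal. The log2 fold change was 0.38 (SE 0.16, edgeR unadjusted p = 0.0570, adjusted p = 0.501), and it stayed between 0.34 and 0.44 when any single library was left out. DESeq2 without shrinkage gave a log2 fold change of 0.39 and an adjusted p of 0.523. The authors' deposited table has the same adjusted p with a smaller, shrunken log2 fold change of 0.21. Its paralog SULF1 had 0 counts in both IMP1-OE libraries, which allows up to 0.300 and 0.286 CPM, and 1 and 2 counts in the null libraries, so it was at or under the floor of 3 counts everywhere and no fold is given.

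Among the lysosomal enzymes, ARSA, which removes sulfate from sulfatide, was the 1 member with groups that did not overlap on the lower side. It had 148 and 128 counts in IMP1-OE, against 190 and 222 in null, or 14.1 and 12.2 CPM against 18.6 and 24.3 CPM. The log2 fold change was -0.71 (SE 0.28, edgeR unadjusted p = 0.0448, adjusted p = 0.484). DESeq2 without shrinkage gave -0.70 and an adjusted p of 0.596, and the authors' deposited table has that adjusted p with a shrunken value of -0.13.

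GALNS, which acts on keratan sulfate and chondroitin sulfate, had 360 and 321 counts in IMP1-OE, against 365 and 301 in null. All 4 libraries lay between 30.5 and 35.7 CPM and the groups overlapped, with a log2 fold change of -0.08 (SE 0.20, edgeR adjusted p = 0.917). ARSB, which removes sulfate from N-acetylgalactosamine in dermatan and chondroitin sulfate, had 27 and 47 counts in IMP1-OE, against 23 and 30 in null, with overlapping groups. Its log2 fold change was 0.35 (SE 0.63, edgeR adjusted p = 0.886).

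ARSG, a heparan sulfate sulfatase that acts on glucosamine, had 21 and 36 counts in IMP1-OE, against 7 and 17 in null. Both IMP1-OE libraries were higher, but the nearest libraries, IMP1-OE replicate 1 and null replicate 2, had 21 and 17 counts. The log2 fold change was 1.09 (SE 0.83, edgeR adjusted p = 0.689), and it lay between 0.54 and 1.97 when single libraries were left out. ARSK, which removes sulfate from glucuronate, had 50 and 36 counts in IMP1-OE, against 50 and 21 in null, with overlapping groups and a log2 fold change of 0.18 (SE 0.61, edgeR adjusted p = 0.946).

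ARSJ, the member closest to ARSI in the family, did not share its distribution over the libraries. It had 147 and 105 counts in IMP1-OE, against 196 and 62 in null, so the null libraries lay on both sides of the IMP1-OE libraries. The log2 fold change was -0.12 (SE 0.53, edgeR adjusted p = 0.959). The null libraries differed by 2.82-fold, whereas for ARSI they differed by 1.04-fold. Without null replicate 1 the log2 fold change of ARSJ was 0.82 and without null replicate 2 it was -0.68. Directions of GALNS, ARSB and ARSK also turned with 1 library left out: GALNS was 0.0102 and ARSB -0.092 without IMP1-OE replicate 2, and ARSK was -0.071 without IMP1-OE replicate 1 and -0.26 without null replicate 2.

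The 8 remaining human sulfatase genes gave 6 tested genes, 1 on the higher and 5 on the lower side, with a median log2 fold change of -0.51. At an unadjusted edgeR p under 0.05, 0 were higher (4.34% of all genes tested) and 2 were lower (5.84% of all genes tested). Of the 6, 0 passed adjusted p over all genes. ARSD, an arylsulfatase gene of the X chromosome cluster, had 176 and 217 counts in IMP1-OE, against 355 and 321 in null. After scaling it averaged 18.7 CPM (SD 2.74) in IMP1-OE, against 34.9 CPM (SD 0.287) in null, with a log2 fold change of -0.90 (SE 0.22, edgeR unadjusted p = 0.00703, adjusted p = 0.435). DESeq2 without shrinkage gave -0.90 with an adjusted p of 0.180, a p also found in the authors' deposited table beside a shrunken value of -0.58. STS, the steroid sulfatase, had 9 and 20 counts in IMP1-OE, against 59 and 39 in null, with a log2 fold change of -1.86 (SE 0.68, edgeR unadjusted p = 0.0349, adjusted p = 0.465).

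SGSH, the heparan sulfamidase, had 107 and 88 counts in IMP1-OE, against 191 and 103 in null. After scaling it was at 10.2 and 8.37 CPM in IMP1-OE, against 18.7 and 11.3 CPM in null. Its log2 fold change was -0.69 (edgeR adjusted p = 0.569), and it lay between -1.01 and -0.28 with 1 library left out. In CPM, both IMP1-OE libraries lay below both null libraries for ARSD, STS and SGSH, a pattern seen in 21.9% of all genes tested. IDS, the iduronate sulfatase, had 86 and 109 counts in IMP1-OE, against 52 and 89 in null, with overlapping groups and a log2 fold change of 0.32, or -0.071 without null replicate 1. ARSL, an arylsulfatase gene also on the X chromosome, had 248 and 173 counts in IMP1-OE, against 439 and 58 in null, so its null libraries differed by 6.76-fold. Without null replicate 1 its log2 fold change was 1.66, against -0.30 with all libraries. ARSF had 0 counts in every library, and ARSH had 0 and 1 in IMP1-OE, against 0 and 4 in null.

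**Figure D3:**
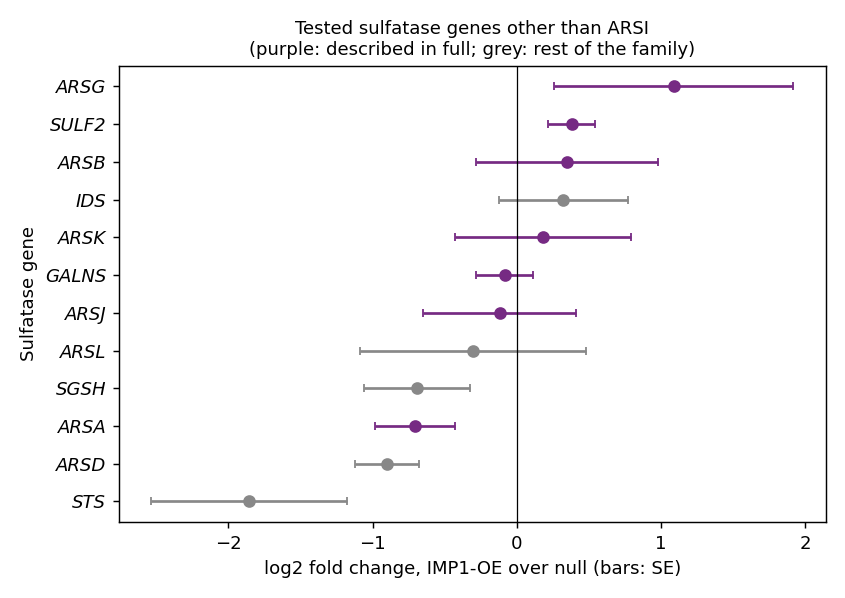
Log2 fold change of IMP1-OE over null for 12 tested sulfatase genes other than ARSI, as points with bars of 1 SE. The values run from -1.86 for STS to 1.09 for ARSG, 5 higher and 7 lower, and 0 of the 12 passed an adjusted p of 0.05.

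The genes beside ARSI in the genome were far below its level, and those with a fold change went in both directions. In the RefSeq gene table (GRCh38.p14), used here only for gene order, ARSI lies on chromosome 5 and no gene of any kind overlaps it. Its nearest protein-coding neighbour on the lower-coordinate side, the kinase gene CAMK2A, had 1 and 4 counts in IMP1-OE, against 0 and 0 in null. The next 4 on that side, SLC6A7, CDX1, PDGFRB and CSF1R, had 0 to 4 counts in IMP1-OE and 0 to 9 in null. On the other side TCOF1, a nucleolar factor gene, was expressed, at 98.1 and 103 CPM in IMP1-OE, against 65.3 and 54.6 CPM in null. TCOF1 thus lay on the opposite side from ARSI (edgeR log2 fold change 0.74, unadjusted p = 0.00708, adjusted p = 0.435). Beyond it, CD74, the MHC class II invariant chain gene, had 91 and 74 counts in IMP1-OE, against 80 and 566 in null. The ribosomal protein gene RPS14 stood at 366 and 383 CPM in IMP1-OE, against 311 and 255 CPM in null. Its edgeR log2 fold change was 0.40 (adjusted p = 0.510). NDST1, a heparan sulfate sulfotransferase gene, was at 5.23 and 3.71 CPM in IMP1-OE, against 7.92 and 5.80 CPM in null, lower in both IMP1-OE libraries as ARSI was (edgeR log2 fold change -0.62, adjusted p = 0.685). SYNPO had 0 and 0 counts in IMP1-OE, against 5 and 1 in null, and was not tested.

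**Figure D4:**
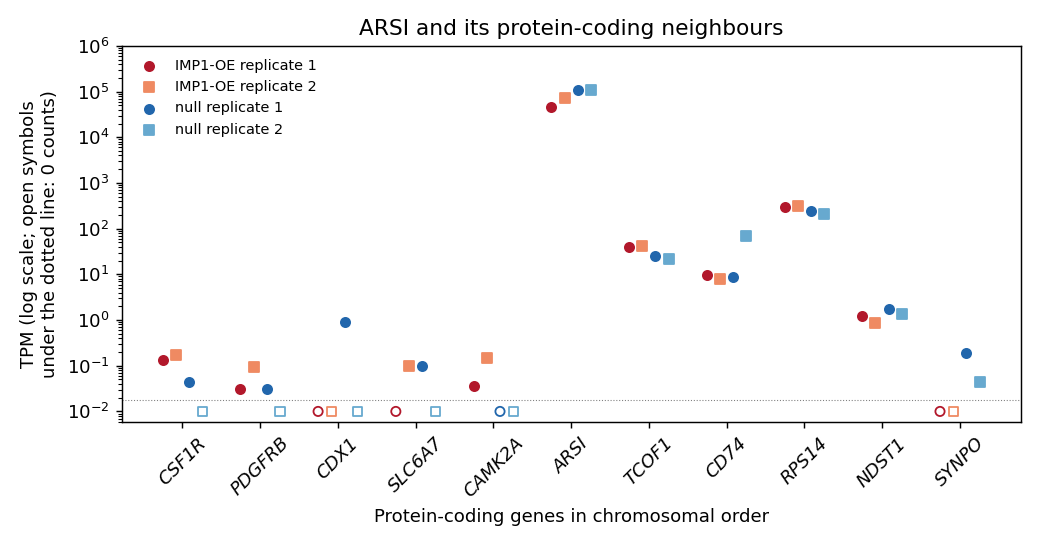
TPM on a log axis for ARSI and the 5 protein-coding genes on each side of it in chromosomal order, with 1 symbol for each library and open symbols for 0 counts. The 5 genes on the left lie under 1 TPM, and on the right RPS14 is the highest, at 207 to 307 TPM.

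The genes whose pattern over the 4 libraries was most like that of ARSI were sought among 6378 genes with a mean of at least 20 CPM, by the Euclidean distance between log2 CPM values centred on each gene's mean. With 4 libraries, many genes can lie close by this measure. The nearest was GTPBP2, a GTP-binding protein gene, at 21.8 and 32.9 CPM in IMP1-OE, against 50.2 and 48.7 CPM in null (distance 0.0715). It was followed by the adhesion receptor gene ADGRG6 (distance 0.150), the mitochondrially encoded cytochrome oxidase gene MT-CO3 (0.209), MTRNR2L11 (0.220) and DENND2D (0.263). MT-CO3 was at 60.6 and 117 CPM in IMP1-OE, against 162 and 167 CPM in null. MTRNR2L11 is one of several near-identical copies of mitochondrial ribosomal RNA sequence, so its counts are uncertain. Of the sulfatases abundant enough to be ranked, ARSD was the nearest to ARSI, at rank 6 (distance 0.283), while GALNS was at rank 2164, SULF2 at 4849 and ARSL at 6300.

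The genes that activate and deliver sulfatases were all tested, 11 of 11, with 4 on the higher and 7 on the lower side and a median log2 fold change of -0.05. None passed adjusted p. At an unadjusted edgeR p under 0.05, 0 were higher (4.34% of all genes tested) and 2 lower (5.84% of all genes tested). GNPTG, a subunit of the enzyme that begins the mannose 6-phosphate tag, was at 15.99 and 14.5 CPM in IMP1-OE, against 30.4 and 27.7 CPM in null (log2 fold change -0.93, SE 0.23, unadjusted p = 0.00667, adjusted p = 0.435). SUMF2, the paralog of the formylglycine-generating enzyme, was at 90.6 and 78.1 CPM in IMP1-OE, against 124 and 113 CPM in null (log2 fold change -0.49, unadjusted p = 0.0337, adjusted p = 0.464). SUMF1 itself was at 11.1 and 11.4 CPM in IMP1-OE, against 13.3 and 18.7 CPM in null (log2 fold change -0.50, adjusted p = 0.619). NAGPA, which completes the tag, was at 14.1 and 13.1 CPM in IMP1-OE, against 11.3 and 8.65 CPM in null. The groups of these 4 genes did not overlap, 1 higher and 3 lower of 11, where 21.3% of all genes tested were higher and 21.9% lower without overlap.

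The lysosomal hydrolases that act beside sulfatases had 12 of 13 genes tested, 6 on each side, with a median log2 fold change of -0.00040. None passed adjusted p or an unadjusted p under 0.05. Groups did not overlap for 4 higher and 2 lower of the 12, where 21.3% of all genes tested were higher and 21.9% lower. NAGLU, the heparan N-acetylglucosaminidase, was at 37.3 and 33.4 CPM in IMP1-OE, against 42.7 and 67.8 CPM in null. HGSNAT, the acetyltransferase of the same pathway, was at 2.57 and 5.61 CPM in IMP1-OE, against 5.18 and 16.9 CPM in null, with overlapping groups. Without null replicate 2 the log2 fold change went from -0.65 to -0.27 for NAGLU and from -1.42 to -0.34 for HGSNAT. The hyaluronidase genes HYAL2 and HYAL3 were on the other side, HYAL2 at 50.9 and 36.4 CPM in IMP1-OE, against 34.9 and 24.1 CPM in null, and HYAL3 with 10 and 42 counts in IMP1-OE, against 2 and 6 in null.

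On the synthetic side, heparan sulfate genes had 16 of 27 tested, 5 higher and 11 lower, with a median of -0.22. At an unadjusted p under 0.05, 0 were higher (4.34% of all genes tested) and 1 lower (5.84% of all genes tested). None passed adjusted p. Groups did not overlap for 1 higher and 7 lower of the 16. Of all genes tested, 21.3% were higher and 21.9% lower without overlap. HS2ST1, a sulfotransferase that acts on uronic acids, was at 23.4 and 24.7 CPM in IMP1-OE, against 37.3 and 38.5 CPM in null (log2 fold change -0.65, SE 0.20, edgeR unadjusted p = 0.0160, adjusted p = 0.447). The polymerase gene EXT1 was at 28.4 and 35.1 CPM in IMP1-OE, against 52.9 and 39.9 CPM in null, and the epimerase gene GLCE at 11.2 and 10.7 CPM, against 15.4 and 16.9 CPM. HS6ST1, which adds the glucosamine sulfate that SULF2 removes, was at 8.76 and 11.4 CPM in IMP1-OE, against 5.97 and 6.68 CPM in null (log2 fold change 0.67, adjusted p = 0.583).

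Chondroitin and dermatan sulfate genes had 10 of 16 tested, 5 on each side, with a median of -0.03. At an unadjusted p under 0.05, 0 were higher (4.34% of all genes tested) and 1 lower (5.84% of all genes tested). That gene, UST, which sulfates uronic acids, had 12 and 10 counts in IMP1-OE, against 18 and 108 in null, so its difference came mostly from null replicate 2, and its log2 fold change was -2.68 with all libraries and -0.74 without that library. DSEL, a dermatan epimerase gene, had 14 and 18 counts in IMP1-OE, against 6 and 3 in null. CHST7, a chondroitin sulfotransferase gene, had 13 and 1 counts in IMP1-OE, against 10 and 20 in null. CHST14, a dermatan sulfotransferase gene, had 167 and 186 counts in IMP1-OE, against 170 and 206 in null.

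Of the genes of sulfate supply, all 8 were tested, 2 higher and 6 lower, with a median of -0.22. At an unadjusted p under 0.05, 1 was higher (4.34% of all genes tested) and 0 lower (5.84% of all genes tested). SLC26A2, a sulfate transporter of the cell surface, was at 12.8 and 10.6 CPM in IMP1-OE, against 6.94 and 4.71 CPM in null (log2 fold change 1.00, SE 0.39, edgeR unadjusted p = 0.0427, adjusted p = 0.482). BPNT2, a Golgi phosphatase gene, was at 39.1 and 37.2 CPM in IMP1-OE, against 44.5 and 56.5 CPM in null. The groups overlapped for SLC35B3, a carrier of activated sulfate, and for PAPSS2, which makes activated sulfate and stood at 47.3 and 37.5 CPM in IMP1-OE, against 96.9 and 26.9 CPM in null.

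Cytosolic, tyrosine and glycolipid sulfotransferases had 10 of 16 genes tested, 4 higher and 6 lower, with a median of -0.13. At an unadjusted p under 0.05, 0 were higher (4.34% of all genes tested) and 1 lower (5.84% of all genes tested). That gene was GAL3ST1, which makes the sulfatide that ARSA breaks down, at 16.3 and 25.6 CPM in IMP1-OE, against 32.0 and 42.8 CPM in null (log2 fold change -0.84, SE 0.30, edgeR unadjusted p = 0.0323, adjusted p = 0.462). The steroid sulfotransferase gene SULT2B1 and the tyrosine sulfotransferase genes TPST1 and TPST2 had overlapping groups, with TPST1 at 3 to 20 counts per library.

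**Figure D5:**
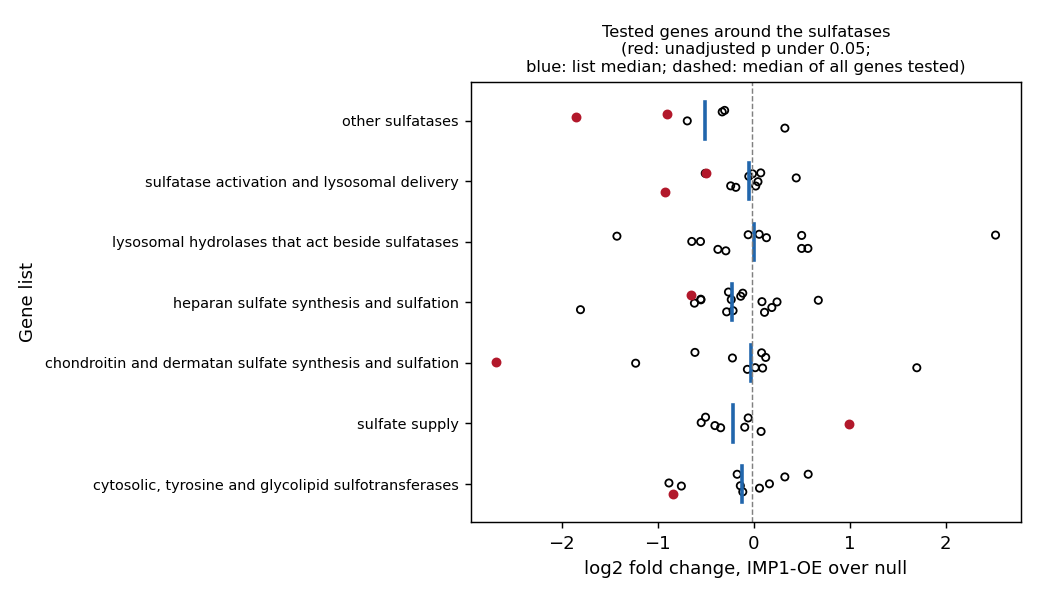
Log2 fold change of IMP1-OE over null for each tested gene of 7 lists around the sulfatases, with list medians in blue and genes at an unadjusted p under 0.05 in red. List medians run from -0.51 to -0.00040, beside a median of -0.02 over all genes tested, and 0 genes of these lists passed an adjusted p of 0.05.

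Because ARSI takes so much of each library, its share sets the scale of every other value given relative to the library total. Leaving ARSI out raises every other share 1.09-fold and 1.14-fold in IMP1-OE, against 1.22-fold and 1.21-fold in null. The log2 fold changes of the 13 other tested sulfatases moved by at most 0.0047 when ARSI was left out before TMM scaling, and by at most 0.09 when library totals were used with no scaling.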

How the data were processed

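RNA from clarified lysates of 4 HT-29 samples was fragmented at random, limited to short fragments and ligated to linkers with molecular identifiers, per the labels' protocols. Per the submitters' processing notes the tools were kallisto 0.46.2, HISAT2 2.1.0, DESeq, cutadapt 3.5 and fastp 0.21, with no role given for any. The sources used here name no genome build. The deposited values are estimated counts, per the file headers, for 20322 gene targets, all whole numbers. Fragments this short can fit several targets, and counts of near-identical copies are uncertain. ARSI counts carry 6 significant digits in 3 libraries. The authors' deposited comparison table gives mean normalized signal, log2 fold changes with their errors and p-values, per the file headers. Its adjusted p-values match the DESeq2 fit made here within 0.1% for 12826 of 12836 genes, while its log2 fold changes are smaller in size for 12823, so they are shrunken values of that fit. The table's 2 other sample names match no label and were not used.

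TPM was computed here from the deposited counts and effective lengths. The edgeR 4.0.16 quasi-likelihood test (R 4.3.3; TMM, filterByExpr, no covariate) was run on all genes, with Benjamini-Hochberg adjustment and a threshold of 0.05. Each SE is the log2 fold change divided by the square root of F. DESeq2 1.42.0, limma 3.58.1, other scalings and filters, the replicate block and the omission of each library were the alternatives. With 2 libraries against 2, an exact permutation test cannot go below p = 0.333. The fit was tested on simulated counts. The 2 libraries of a group differed by more than counting noise (chi-square per degree of freedom 19.2 for IMP1-OE and 55.3 for null), so none were merged. A count of 0 allows up to 3 counts. The members and gene lists were chosen with earlier results of these data known. Genes named are the members, the rest of the family, up to 4 genes with the smallest p of each list, the 5 neighbours on each side, the 5 genes most like ARSI and the 5 largest targets after it. A further gene of the family counts in the totals and list medians and is not reported here.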

Additional observations from a re-analysis of the deposited data

How the results depend on the processing

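The edgeR count of 0 genes called became 22 with no low-count filter, 1 with limma-voom, 164 with DESeq2, 15 with the replicate number as a block, and 0 to 783 with 1 library left out, where 783 is without null replicate 1 and 48 without null replicate 2. None of the 13 tested sulfatases other than ARSI passed an adjusted p of 0.05 under any of the 13 alternatives. Replicate numbers are shared only as numbers, and deviations of same-numbered libraries correlated at 0.13 across 12113 genes. With the replicate block the log2 fold changes of ARSJ and ARSL were 0.034 and 0.19, and with limma-voom 0.014 and 0.19, against -0.12 and -0.30 in the edgeR fit. With 1 library left out, the range was -0.68 to 0.82 for ARSJ, -1.10 to 1.66 for ARSL, -0.092 to 0.69 for ARSB, -0.26 to 0.83 for ARSK, -0.17 to 0.0102 for GALNS and -0.071 to 0.86 for IDS. The cause was not tested. ARSA, ARSG, SULF2, ARSD, STS and SGSH kept their direction under all 13 alternatives. The groups of these genes did not overlap, so leaving out 1 library could hardly turn their direction. The ratio of ARSI shares lay between 0.458 and 0.708 under its alternatives. Both IMP1-OE shares lay below both null shares, so leaving out 1 library could not bring this ratio to 1. Depth limits ARSB, ARSG, ARSK, STS and SULF1, which had under 60 counts in each library.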
